A study of Mus musculus with 23 samples.

Results

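Immediate early genes are the first genes that neurons transcribe after synaptic input, without the need for new protein synthesis. The 10 studied here were Fos, Fosb, Junb, Egr1, Arc, Npas4, Nr4a1, Dusp1, Ier2 and Btg2. They were taken by symbol from the table of hippocampal genes, and 10 of 10 were found among its 13766 genes.

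Calcium entering through glutamate receptors and voltage-gated channels activates kinases that act on transcription factors already bound at these genes, chiefly CREB at cyclic AMP response elements (CREs) and SRF with its partners at CArG boxes. The RNAs appear within minutes of activity and decay quickly, so their level in a tissue reflects its recent past. In the hippocampus they are widely used as markers of neurons engaged by experience, and several are required for lasting synaptic change and memory.

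Hippocampal RNA was sequenced from 23 FCG mice on the C57Bl/6J background at about 12 months of age, 1 library for each animal. FCG mice lack the testis-determining gene Sry on the Y chromosome and can carry it as an autosomal transgene, which separates the sex chromosomes from the gonads. The groups were XX mice with ovaries (XXF, n = 5), XX mice with testes (XXM, n = 6), XY mice with ovaries (XYF, n = 6) and XY mice with testes (XYM, n = 6). The crossed design separates differences that follow the sex chromosomes from those that follow the gonad. As background to the model, mice with testes carry the Sry transgene and mice with ovaries do not, and a Y chromosome that lacks Sry is present in both XY groups.

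No group received a drug, a task or a stimulus that the labels record. All animals were fed standard chow, kept in light for 12 hours a day and killed by cervical dislocation followed by decapitation. The sources used here give no time of day or order of collection. Weaned pups were caged by the appearance of their genitalia, so effects of the gonad and of the cage cannot be told apart.

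Estimated counts per library summed to between 10257751 and 36078221 over the listed genes, a 3.52-fold range. Levels are given as CPM, counts scaled to the library total and by trimmed-mean (TMM) factors. For Ddx3y and Xist the library total alone was used. Ddx3y, a Y-linked gene, lay at or below 0.438 CPM in the 11 XX libraries and between 48.7 and 72.1 CPM in the 12 XY libraries. Xist, transcribed from the inactive X chromosome, lay between 918 and 1491 CPM in XX libraries and between 0.518 and 96.7 CPM in XY libraries, the highest of these being XYF replicate 4. The summed level of 8 markers of hippocampal excitatory neurons ran from 2289 to 2884 CPM over all libraries. Markers of the choroid plexus, a secretory tissue beside the hippocampus, varied far more: Ttr lay between 1668 and 2927 CPM in 7 libraries and between 19.1 and 152 CPM in the other 16. The 7 were XXF replicate 1, XXM replicates 1, 3, 4 and 5, XYF replicate 5 and XYM replicate 1.

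Because the levels of these genes varied together across animals, their promoters were read for the elements that the activity pathway is known to use. RefSeq windows on GRCm38.p6, from 250 bases before to 50 bases after the start of the gene, were held for 7 of the 10: Btg2, Dusp1, Fos, Fosb, Junb, Npas4 and Nr4a1. The 250 bases before the start are shown for Fos and Npas4, whose levels varied most between animals, for Dusp1 and Btg2, which hold a full CRE, and for Nr4a1, which holds the most CRE cores. Each reads 5′ to 3′ on the gene's own strand, and capitals mark the CRE core TGACG on either strand, so that a match on the opposite strand reads CGTCA. The coordinates are chr12:85473640-85473889 (plus strand) for Fos, chr19:4989972-4990221 (minus strand) for Npas4 and chr17:26508473-26508722 (minus strand) for Dusp1. They are chr1:134079156-134079405 (minus strand) for Btg2 and chr15:101266596-101266845 (plus strand) for Nr4a1.
Fos: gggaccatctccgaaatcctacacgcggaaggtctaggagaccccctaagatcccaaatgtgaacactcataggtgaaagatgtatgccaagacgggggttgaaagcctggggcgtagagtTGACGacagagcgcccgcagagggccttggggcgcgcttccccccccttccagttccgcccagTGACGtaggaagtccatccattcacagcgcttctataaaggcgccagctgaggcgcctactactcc
Npas4: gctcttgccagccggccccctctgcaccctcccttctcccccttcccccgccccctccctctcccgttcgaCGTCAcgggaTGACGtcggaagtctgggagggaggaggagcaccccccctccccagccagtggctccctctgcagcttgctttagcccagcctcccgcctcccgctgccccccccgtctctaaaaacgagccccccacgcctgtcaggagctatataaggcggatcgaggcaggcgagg
Dusp1: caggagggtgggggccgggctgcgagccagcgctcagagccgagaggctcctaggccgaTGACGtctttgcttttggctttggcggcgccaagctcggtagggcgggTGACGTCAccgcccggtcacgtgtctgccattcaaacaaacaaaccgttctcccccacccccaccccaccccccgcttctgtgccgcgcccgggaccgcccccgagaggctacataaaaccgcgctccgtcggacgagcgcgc
Btg2: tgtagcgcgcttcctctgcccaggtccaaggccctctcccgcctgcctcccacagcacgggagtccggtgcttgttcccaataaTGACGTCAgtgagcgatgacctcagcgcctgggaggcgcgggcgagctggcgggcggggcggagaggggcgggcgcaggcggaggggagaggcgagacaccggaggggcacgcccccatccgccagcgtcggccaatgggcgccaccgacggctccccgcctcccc
Nr4a1: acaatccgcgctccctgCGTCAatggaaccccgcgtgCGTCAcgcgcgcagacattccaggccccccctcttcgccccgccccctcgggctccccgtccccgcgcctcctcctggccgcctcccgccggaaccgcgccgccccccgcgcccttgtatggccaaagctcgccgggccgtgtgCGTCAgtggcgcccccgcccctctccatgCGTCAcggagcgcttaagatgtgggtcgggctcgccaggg

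The CRE core TGACG was present, on either strand, in 7 of 7 member windows and in 30.9% of the 10897 windows of genes in the table. Nr4a1 held 4 matches, Dusp1 held 3, Fos, Npas4 and Btg2 held 2 each, and Fosb and Junb held 1 each. The full palindrome TGACGTCA, which contains overlapping cores on both strands, was present in Dusp1 and Btg2 and in 3.21% of windows of genes in the table. In Fos the matches began at -129 and -66, counting the start base as 1 and the base before it as -1, and the TATA box TATAAA began at -33. These positions count from the RefSeq start, the window before which ends at 85473889. It lies slightly upstream of the Fos start of 85473901 in the table of genes. The EGR site GCGNGGGCG was found in Btg2, Fosb and Nr4a1 and in 11% of windows of genes in the table. The AP-1 site TGANTCA and the CArG box had no match in the 7 member windows, against 4.72% and 1.26% of the windows of genes in the table. A match is a description of letters, and a window without one says only that these letters are not in it.

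The members are short genes. Their median genomic span was 3620 bases, with a range of 1522 to 7949, against a median of 23265 bases over all genes in the table. All are protein-coding and none overlaps another annotated gene of the GENCODE annotation of GRCm38. Coordinates are those of the table, in the mm10 build, which is the same assembly. Fos (gene 14281) lies at chr12:85473901-85477270, Fosb (gene 14282) at chr7:19302696-19310045, and Junb (gene 16477) at chr8:84976909-84978748. Egr1 (gene 13653) lies at chr18:34861207-34864956, Npas4 (gene 225872) at chr19:4984355-4989971, and Nr4a1 (gene 15370) at chr15:101266846-101274794. Arc (gene 11838) lies at chr15:74669081-74672570, Dusp1 (gene 19252) at chr17:26505591-26508472, Ier2 (gene 15936) at chr8:84661331-84662852, and Btg2 (gene 12227) at chr1:134074865-134079155.

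To compare levels between the genes, the median CPM over the 23 libraries was divided by the length in kilobases of the longest annotated transcript. On that scale Arc was highest at 49.0 CPM per kilobase, followed by Egr1 at 28.7, Nr4a1 at 24.7 and Junb at 22.9. Btg2 at 9.34, Fos at 8.02, Dusp1 at 6.97 and Npas4 at 5.76 formed a middle range, with Ier2 at 3.06 and Fosb at 2.40 lowest. The ranges over libraries of neighbours in this order overlapped. The lowest count behind any member value was 46, for Ier2.

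Fos and Fosb encode FOS-family proteins that pair with a JUN-family protein, such as that of Junb, to form the AP-1 transcription factor. Fos stood at 13.2, 38.1, 7.84, 16.9 and 16.8 CPM in XXF replicates 1 to 5. The lowest, median and highest levels were 4.88, 15.2 and 31.0 CPM in XXM, 9.23, 23.9 and 37.1 CPM in XYF, and 6.45, 16.2 and 32.8 CPM in XYM. The groups overlapped almost entirely, since each held libraries near the bottom and near the top of the whole range. XXM replicates 1, 2 and 4 lay between 22.1 and 31.0 CPM and replicates 3, 5 and 6 between 4.88 and 8.24 CPM, with nothing in between.

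Fosb was lower and varied less, at 8.62, 13.3, 6.42, 10.9 and 10.1 CPM in XXF replicates 1 to 5. It ran from 5.09 through a median of 8.60 to 13.4 CPM in XXM, from 6.05 through 9.35 to 13.1 CPM in XYF, and from 4.07 through 7.88 to 13.3 CPM in XYM. The highest library of each group reached nearly the same level, between 13.1 and 13.4 CPM. Junb stood at 37.9, 57.6, 29.2, 45.6 and 44.1 CPM in XXF, and at 24.9, 39.2 and 53.9 CPM (lowest, median, highest) in XXM. In XYF its corresponding levels were 28.8, 49.3 and 65.2 CPM, and in XYM 26.9, 39.0 and 42.6 CPM. XYM was the narrowest group for Junb, with a 1.59-fold range, and lay inside the range of XXM at both ends.

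Egr1, Npas4 and Nr4a1 encode transcription factors of other families: a zinc finger protein, a neuron-restricted bHLH-PAS protein induced by calcium entry, and an orphan nuclear receptor. Egr1 stood at 127, 220.2, 104, 152 and 158 CPM in XXF replicates 1 to 5. It ran from 89.3 through a median of 118 to 163 CPM in XXM, from 91.2 through 142 to 177 CPM in XYF, and from 82.4 through 123 to 148 CPM in XYM. Its mean ± SD was 152 ± 43.7 CPM in the 5 XXF libraries, 119.8 ± 29.5 in the 6 of XXM, 141 ± 32.7 in the 6 of XYF and 119 ± 27.5 in the 6 of XYM. Both groups with ovaries had the higher means, but all 4 groups overlapped.

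Npas4 stood at 13.8, 31.6, 7.84, 26.5 and 7.48 CPM in XXF replicates 1 to 5. Its lowest, median and highest levels were 5.28, 15.9 and 30.9 CPM in XXM, 7.45, 23.1 and 33.4 CPM in XYF, and 10.2, 19.9 and 33.4 CPM in XYM. As with Fos, the same 3 XXM libraries were low (5.28 to 8.98 CPM) and the same 3 high (22.9 to 30.9 CPM), and XYF replicates 5 and 6 lay well below the other 4 of their group. Nr4a1 stood at 52.1, 107, 48.6, 66.7 and 75.8 CPM in XXF. Its lowest, median and highest levels were 36.4, 53.1 and 98.0 CPM in XXM, 48.3, 74.5 and 98.1 CPM in XYF, and 37.0, 55.5 and 88.5 CPM in XYM. Its groups overlapped over most of their ranges.

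Arc encodes a cytoskeleton-associated protein that acts at dendrites, where it takes part in the removal of AMPA receptors from the synapse. Arc stood at 120.1, 287, 88.3, 159 and 181 CPM in XXF replicates 1 to 5. It ran from 74.4 through a median of 123 to 231 CPM in XXM, from 86.3 through 170.3 to 240.2 CPM in XYF, and from 89.3 through 119.7 to 227 CPM in XYM. The lowest level of a group lay between 74.4 and 89.3 CPM in all 4, and the highest between 227 and 287 CPM.

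Dusp1 and Btg2 are known as brakes: DUSP1 is a phosphatase that inactivates MAP kinases, and BTG2 is an antiproliferative protein that recruits the machinery of RNA deadenylation. Dusp1 stood at 13.2, 26.8, 13.5, 18.5 and 12.4 CPM in XXF replicates 1 to 5, and its lowest, median and highest levels were 13.2, 18.1 and 29.1 CPM in XXM. In XYF they were 11.5, 21.3 and 32.7 CPM, and in XYM 11.8, 15.4 and 28.4 CPM. Each group thus spanned more than the distance between any pair of group medians.

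Btg2 stood at 19.6, 38.8, 19.2, 25.6 and 21.1 CPM in XXF replicates 1 to 5, and ran from 20.3 through a median of 27.4 to 35.2 CPM in XXM. It ran from 19.6 through 34.0 to 52.6 CPM in XYF and from 19.1 through 27.7 to 40.6 CPM in XYM. XYF had the highest mean, 34.1 ± 12.9 CPM (SD, n = 6), and also the widest range, and its lowest library lay within 1 CPM of the lowest of each other group.

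Ier2 encodes a small nuclear protein induced with the growth factor response. It stood at 4.58, 5.02, 3.62, 5.48 and 4.83 CPM in XXF replicates 1 to 5. Its lowest, median and highest levels were 3.13, 4.58 and 7.44 CPM in XXM, 3.03, 6.08 and 9.26 CPM in XYF, and 3.25, 4.11 and 5.57 CPM in XYM. XYF replicates 2, 3 and 4 lay between 7.51 and 9.26 CPM, above every other library of the series, while replicate 5 was the lowest of all 23.

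**Figure D1:**
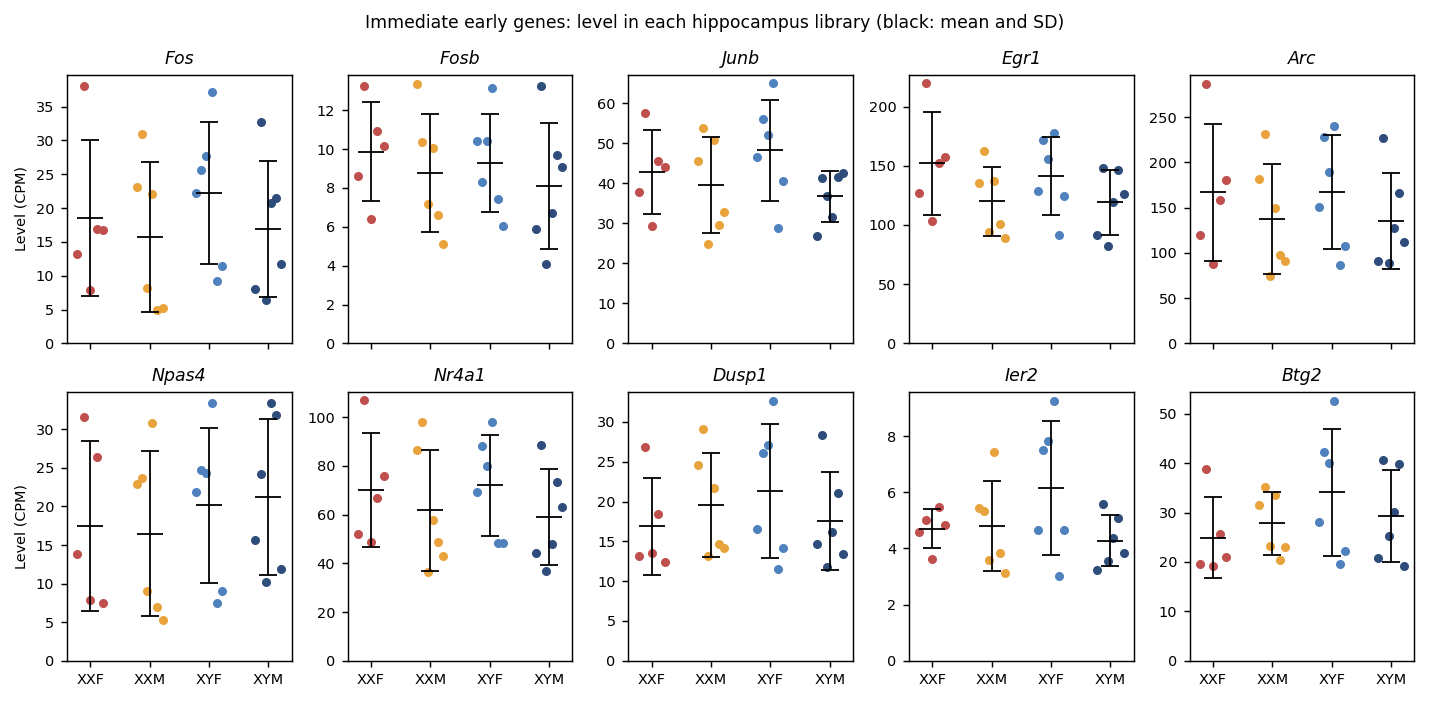
Level of each immediate early gene in CPM (vertical axis, linear from 0) in each hippocampus library by group. Points are libraries and bars are the mean and SD of the 5 XXF, 6 XXM, 6 XYF and 6 XYM libraries. For Fos the libraries ran from 4.88 to 38.1 CPM and the groups overlapped.

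Differences between groups were tested with edgeR's quasi-likelihood test over all 13766 genes, with p-values adjusted by the Benjamini-Hochberg method and a gene called at an adjusted p under 0.05. No call was made for any of the 10 genes in any comparison. In a whole tissue, fewer cells of a type and less RNA per cell cannot be told apart. Labels give 1 animal number for each library. The spread is therefore that between animals together with that of dissection and library preparation, which cannot be told apart.

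For the sex chromosome effect (the mean of both XY groups minus that of both XX groups), 0 of 10 were called, against 0.276% of all genes. Of the 10, 6 were higher and 4 lower in XY, where 49.1% of all genes were lower, and the members' median difference was 0.06 on the log2 scale. At an unadjusted p under 0.05 no member passed and 6.58% of all genes did. The smallest p was that of Btg2, with a log2 fold change of 0.26 ± 0.19 (SE), a 95% interval from -0.13 to 0.65 and adjusted p = 0.896 in edgeR. For Fos the difference was 0.17 with an interval from -0.61 to 0.96, and for Npas4 it was 0.27 with an interval from -0.48 to 1.03. For Egr1 it was -0.06, with an interval from -0.37 to 0.26. The upper ends of the first pair of intervals correspond to 1.95-fold and 2.04-fold higher levels in XY, and that of Egr1 to 1.19-fold.

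For the gonad effect (the mean of both groups with testes minus that of both with ovaries), 0 of 10 were called, against 0.167% of all genes. The median log2 fold change was -0.24, with 9 of the 10 lower in mice with testes, against a median of 0.00 and 51% lower over all genes. Because the members varied together across animals, these 9 directions are not separate observations. Egr1 came closest to the threshold, with a log2 fold change of -0.29 ± 0.15 (SE), a 95% interval from -0.60 to 0.02 and adjusted p = 0.398 in edgeR. Fos differed by -0.30 (interval -1.08 to 0.49), Arc by -0.29 (interval -0.81 to 0.24), Junb by -0.25 (interval -0.56 to 0.07) and Ier2 by -0.24 (interval -0.58 to 0.09). Npas4 was the exception, at 0.00 (interval -0.75 to 0.76). At an unadjusted p under 0.05 no member passed, whereas 13.4% of all genes did.

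For the interaction (the gonad difference in XY minus that in XX), 0 of 10 members and 0% of all genes were called. At an unadjusted p under 0.05 edgeR passed 0 members and 3.12% of all genes, and DESeq2 also called no gene. The smallest p was that of Ier2, with a log2 difference of -0.55 ± 0.33 (SE), a 95% interval from -1.22 to 0.12 and adjusted p = 0.999 in edgeR. Of the 10, 8 were below 0, as were 52.2% of all genes. Dusp1 at -0.51 and Btg2 at -0.40 pointed the same way, and Egr1 at 0.09 and Npas4 at 0.15 the other way. These directions are not separate observations either, since the members varied together. The median interval reached 0.82 log2 units to each side of the estimate, against 0.41 for the sex chromosome and gonad effects.

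The pairwise comparisons called no member either. The background was 0.305% for XYF against XXF, 0.116% for XYM against XXM, 0% for XXM against XXF, 0.196% for XYM against XYF, 0.138% for XYM against XXF and 0.458% for XXM against XYF. The only member with an unadjusted p under 0.05 was Ier2 in XYM against XYF, where 8.42% of all genes passed. Its log2 fold change was -0.52 ± 0.22 (SE), with adjusted p = 0.549 in edgeR. For XXM against XXF, where edgeR called 0 genes and DESeq2 called 1, no member and 7.51% of all genes had an unadjusted p under 0.05. In XXM against XYF all 10 were lower in XXM, as were 51.9% of all genes, with a median log2 fold change of -0.27 for the members. The members varied together, so these 10 directions are not separate observations. A single test of any difference among the 4 groups called 0 of 10 members, against 0.479% of all genes.

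**Figure D2:**
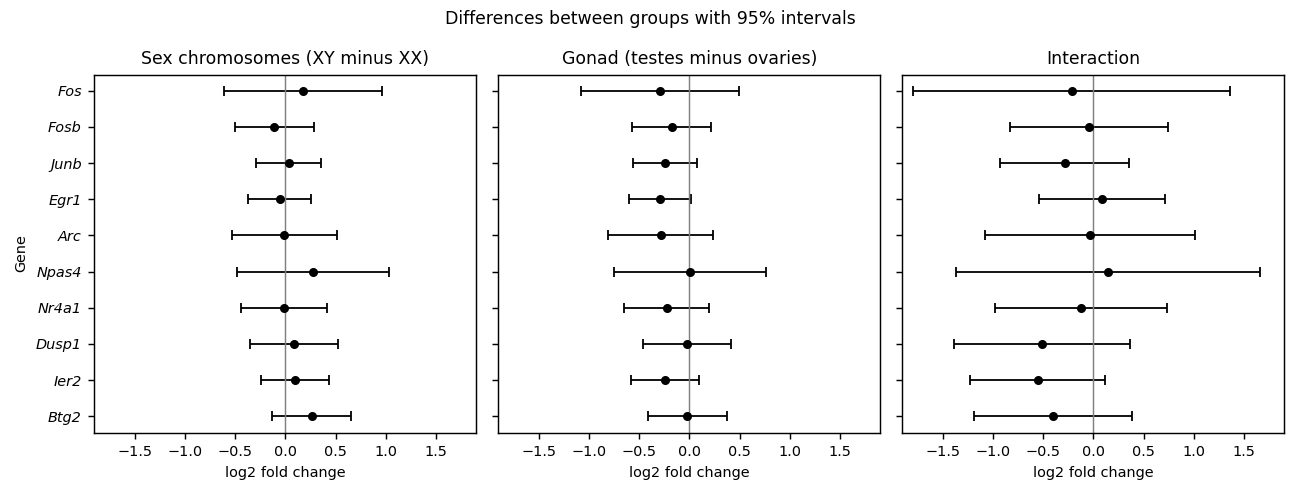
Fitted log2 fold change of each gene (horizontal axis) with its 95% interval for the sex chromosome effect, the gonad effect and their interaction. All 30 intervals include 0, and the closest to excluding it is that of Egr1 for the gonad effect, from -0.60 to 0.02.

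Within groups, by contrast, the members varied more than most genes. The SD of log2 CPM between libraries of a group, pooled over the 4 groups, was 0.94 for Fos and 0.91 for Npas4, both at the 99.5 percentile of all genes. Arc followed at 0.60 (percentile 98.4), then Dusp1 at 0.51, Nr4a1 at 0.49, Fosb at 0.48, Btg2 at 0.45 and Ier2 at 0.43. Junb at 0.38 (percentile 91.9) and Egr1 at 0.37 (percentile 90.9) varied least. The median of the 10 was 0.49 and that of all genes 0.15. Fos differed 7.79-fold between its lowest library, XXM replicate 5, and its highest, XXF replicate 2, and Npas4 differed 6.33-fold between XXM replicate 6 and XYF replicate 4. For the other members the range over all libraries was 2.62-fold (Junb) to 3.85-fold (Arc).

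**Figure D3:**
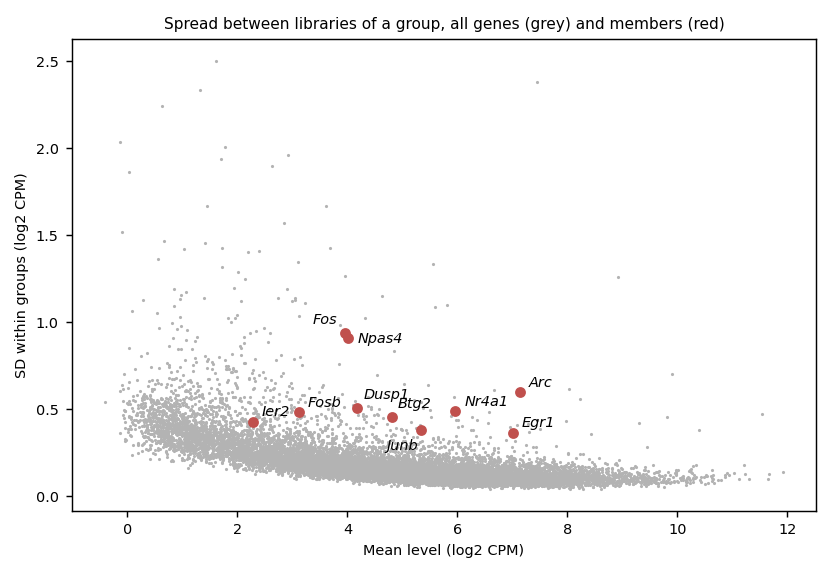
SD of log2 CPM between libraries of a group, pooled over groups (vertical axis), against mean log2 CPM (horizontal axis), for all 13766 genes in grey and the 10 immediate early genes in red. Fos (0.94) and Npas4 (0.91) lie highest of the 10, and all 10 lie above the median of 0.15.

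The members rose and fell together from library to library. After each group's mean was removed from log2 CPM, all 45 pairs of the 10 genes were positively correlated over the 23 libraries. Pearson's r ran from 0.68 (Fosb with Btg2) to 0.96 (Arc with Nr4a1), with a median of 0.84, and Spearman's rho from 0.65 to 0.96, with a median of 0.83. In a permutation test of libraries within groups, 100000 resamples and 2-sided, every pair had an adjusted p at or below 0.00113 for r and 0.00263 for rho, over 45 pairs. The smallest p was 1e-05, the smallest these resamples can give. No share over pairs of other genes is given beside these counts, here or within single groups. Without the 2 libraries farthest from the median of the first gene of a pair, r ran from 0.66 to 0.95. The lowest correlations were those of Fosb, whose median r with the other 9 was 0.77, and the highest those of Arc (0.89) and Fos (0.88).

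The co-variation was seen in each group large enough to examine. All 45 correlations were positive in XXM, XYF and XYM. The median r was 0.89 in XXM, 0.95 in XYF and 0.83 in XYM, over 6 libraries each. By an exact 2-sided permutation test, 24 pairs in XXM, 38 in XYF and 21 in XYM had p under 0.05, and 3, 38 and 5 did after adjustment over 45 pairs, the smallest possible p being 0.00139. The weakest pair was Junb with Npas4 in XYM, with r = 0.000619. XXF, with 5 libraries, was not examined alone. Whether the strength of co-variation differed between groups was not tested.

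**Figure D4:**
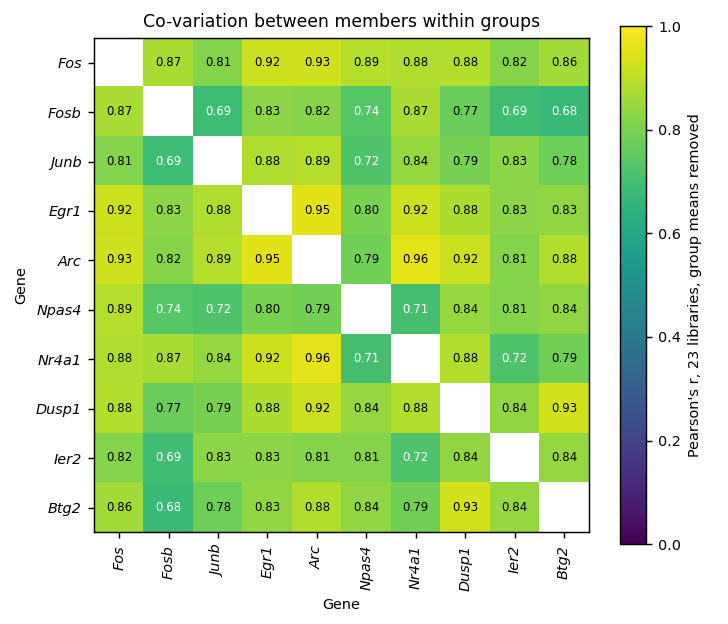
Pearson's r between each pair of the 10 genes over 23 libraries after removal of group means (color, from 0 to 1, with the value in each cell). Arc with Nr4a1 (0.96) and Egr1 with Arc (0.95) are highest, and Fosb with Btg2 (0.68) is lowest.

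A single axis described most of this variation. The first principal component of the 10 genes held 85.1% of the variance and the second 4.94%. In 7 libraries all 10 genes lay above their group mean and in 8 libraries all 10 lay below it. The highest library of each group by the mean over the 10 was XXF replicate 2, XXM replicate 2, XYF replicate 4 and XYM replicate 2. The lowest was XXF replicate 3, XXM replicate 6, XYF replicate 5 and XYM replicate 3. Between these the mean differed 2.40-fold in XXF, 2.33-fold in XXM, 2.66-fold in XYF and 2.21-fold in XYM.

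The genes took part to different degrees. For each unit of log2 change in the mean of the other 9, Fos changed by 1.91 units, Npas4 by 1.63 and Arc by 1.13. Dusp1 changed by 0.92 units, Nr4a1 by 0.85, Btg2 by 0.78, Fosb by 0.77, Ier2 by 0.70, Egr1 by 0.65 and Junb by 0.61. Fos, Arc and Egr1 followed the mean of the others most closely, with r of 0.96, 0.95 and 0.95, and Fosb least, with r of 0.84. Npas4 departed from the rest in some libraries. In XXF replicate 5 it was 7.48 CPM, the lowest of its group, while Fos was at 16.8 CPM, the median of its group. In XYM replicate 4 it was 33.4 CPM, the highest of its group, while Junb at 31.7 CPM lay below the median of its group.

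**Figure D5:**
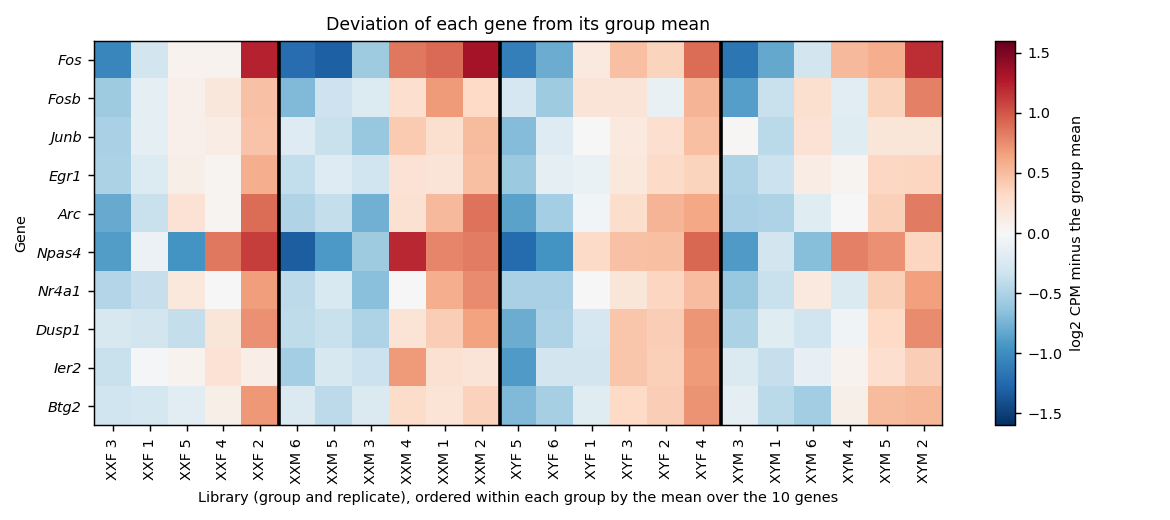
Deviation of each gene's log2 CPM from its group mean (color) in each of the 23 libraries, which are ordered within each group by the mean over the 10 genes. In 7 libraries all 10 genes lie above the group mean, in 8 all 10 lie below it, and 8 are mixed.

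Features of the libraries were set beside these levels. No member correlated, at an adjusted p under 0.05 over 40 tests, with the library total or the scores of choroid plexus, haemoglobin and mural cell markers after removal of group means. The smallest adjusted p of the permutation test was 0.671, and no unadjusted p was under 0.05. Pooled over groups, r ran from -0.40 to -0.01 for the library total, from -0.39 to -0.06 for choroid plexus markers, from -0.39 to 0.06 for haemoglobin genes and from -0.32 to 0.01 for mural cell markers.

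Within groups of 6 libraries the relations with library total, haemoglobin genes and mural cell markers did not run one way. Those with choroid plexus markers were mostly negative. With the library total, all 10 members had positive r in XXM (0.47 to 0.82) and negative r in XYF (-0.55 to -0.24) and XYM (-0.94 to -0.31), so the pooled values combine opposite signs. With haemoglobin genes all 10 were negative in XXM (-0.62 to -0.23) and XYM (-0.95 to -0.23), and 9 of 10 were positive in XYF. With mural cell markers all 10 were negative in XXM (-0.90 to -0.50), while 7 of 10 were positive in XYF and 9 of 10 in XYM. With choroid plexus markers all 10 were negative in XYF (-0.68 to -0.11) and XYM (-0.70 to -0.31), and 7 of 10 in XXM. The members followed a shared axis, so their signs within a group are not separate observations. By an exact 2-sided permutation test, 5 of these 120 relations had p under 0.05 and 0 did after adjustment, the smallest adjusted p being 0.556. The 5 were Btg2 with the library total in XYM (r = -0.94), Junb with haemoglobin genes in XYM (-0.95), and Btg2 (-0.90), Fos (-0.83) and Npas4 (-0.83) with mural cell markers in XXM. Whether a relation differed between groups was not tested, and neither was the part of these measures in the members' variation.

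The mean deviation of the 10 genes ran from -0.77 to 0.48 log2 units in the 7 libraries high in Ttr and from -0.59 to 0.69 in the other 16. With the library total, choroid plexus and haemoglobin scores regressed out, the median r of the 45 pairs was 0.86, and without the 7 libraries high in Ttr it was 0.84. XYF replicate 4, which held the added Xist signal and was the highest of its group for these genes, was also left out alone: no member was called without it, and all 45 pairs remained correlated at an adjusted p under 0.05.

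Between groups, the 8 choroid plexus markers measured were all higher in mice with testes (median log2 fold change 0.71) and the 3 haemoglobin genes measured all lower (median -0.69), with no call. The choroid plexus difference lay mainly in XXM. The median of the summed markers was 3621 CPM in XXM, against 375 in XXF, 336 in XYF and 396 in XYM. For the interaction all 8 were below 0 (median -1.96), also with no call. The part of both sets of markers in the members' gonad differences was examined only through covariates. The members' median gonad difference of -0.24 was -0.15 with the choroid plexus score in the model and -0.39 with the haemoglobin score, and no member was called in either.

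The genes outside the 10 whose pattern was most like theirs were found by correlation with the members' mean over the 23 libraries, as a description. All libraries share their depth and composition across genes. Gadd45b, a stress- and activity-induced regulator of MAP kinase signalling and DNA demethylation, came first with r = 0.83, followed by Irf2bp2 (0.82), Tob2 (0.80), Cyr61 (0.80) and Csrnp1 (0.77). Trib1 (0.76), Nsun6 (0.74), Dusp6 (0.74), Nrg4 (0.72) and Klf2 (0.71) completed the first 10. Tob2 encodes an antiproliferative protein of the same family as BTG2, and Dusp6 a phosphatase of ERK. Gadd45b ranged from 7.0 to 14.4 CPM and Cyr61 from 2.20 to 12.7 CPM over the 23 libraries. For 9 of the 10 members the single most similar gene in the table was another member, as with Dusp1 and Btg2 (0.93) or Arc and Nr4a1 (0.96). Junb was the exception, its nearest gene being Egr4 (0.89), another EGR-family immediate early gene. Genes outside the 10 that correlated with a member above its weakest fellow member numbered from 0 (Fos) to 16 (Fosb).

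A list of 33 other rapid activity-induced genes in the table divided on this measure. Of these, 15 (45.5%) had r above 0.5 with the members' mean, against 1.45% of the 13756 other genes. Among the 15 were Egr4 (0.70), Sertad1 (0.63), Klf4 (0.63), Apold1 (0.62), Per1 (0.62), a clock gene that is also induced by activity, and Sik1 (0.61), a kinase that restrains CREB coactivators. Other genes of the same list did not follow: Ier3 was lowest at -0.32, Jun was at -0.17, Homer1 at -0.17, Fbxo33 at -0.09, Rgs2 at 0.01 and Nr4a3 at 0.10. Over all libraries Ier3 ranged widely, from 1.98 to 7.47 CPM, and Jun and Homer1 narrowly, from 87.9 to 121 CPM and from 90.4 to 128 CPM. Of 12 delayed activity-induced genes, only Rasl11b (0.62) was above 0.5, and Bdnf, the growth factor gene, was at -0.12. Counts are per gene, so different transcripts of a gene such as Homer1 or Bdnf are not told apart. None of 15 transcription regulators acting upstream and none of 18 upstream signalling genes was above 0.5. Beside the 1.45% of all other genes, this absence in lists so short does not tell them apart from other genes. Among the regulators, Srf was at 0.14 and Creb1 at 0.06, and the RNA of the CREB coactivator Crtc2 was highest at 0.38.

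The same lists were read for group differences. Of the 33 other rapid genes, 0 were called for the sex chromosome effect, the gonad effect or the interaction. Of all genes, 0.276%, 0.167% and 0% were called in these comparisons, in that order. Of the 33, 27 were lower in mice with testes, against 51% of all genes, and their median log2 fold change was -0.13. Since 15 of the 33 followed the members' mean with r above 0.5, these directions are not separate observations. Ier5 had the smallest p for the gonad effect (-0.24, edgeR adjusted p = 0.140), followed by Sertad1 (-0.38, adjusted p = 0.154) and Coq10b (-0.22, adjusted p = 0.243). For the sex chromosome effect Ier5 (-0.18, edgeR adjusted p = 0.538), Ptgs2 (0.27, adjusted p = 0.580) and Atf3 (-0.45, adjusted p = 0.647) had the smallest p. Of the 15 upstream regulators none was called, beside the same shares of all genes. Elk1 (0.16, edgeR adjusted p = 0.154), Mef2a (0.17, adjusted p = 0.193) and Crebbp (0.13, adjusted p = 0.394) led for the gonad effect, all higher with testes, and Mef2c, Elk1 and Crtc2 for the sex chromosome effect, with adjusted p of 0.723, 0.751 and 0.751. Of the 18 signalling genes none was called, again beside those shares. Camk2b (0.15, edgeR adjusted p = 0.311), Prkacb (-0.07, adjusted p = 0.830) and Cacna1d (0.12, adjusted p = 0.849) led for the sex chromosome effect, and Rps6ka5 (0.18, adjusted p = 0.203), Cacna1c (0.25, adjusted p = 0.203) and Map2k2 (-0.13, adjusted p = 0.259) for the gonad effect.

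The 1 call among the lists was in the delayed set of 12, for the sex chromosome effect, where 0.276% of all genes were called. Nptx2, which encodes a secreted pentraxin that clusters AMPA receptors at synapses, was higher in XY mice. Its mean ± SD was 22.8 ± 1.76 CPM in the 5 XXF libraries, 22.7 ± 3.25 in the 6 of XXM, 29.4 ± 1.85 in the 6 of XYF and 26.5 ± 3.72 in the 6 of XYM. The XXF libraries, from 20.2 to 24.9 CPM, lay below all XYF libraries, from 27.8 to 32.3 CPM, whereas XXM (17.3 to 26.6 CPM) and XYM (22.3 to 33.3 CPM) overlapped. The log2 fold change was 0.30 ± 0.07 (SE), with adjusted p = 0.0435 in edgeR. The size of the difference changed little across settings, while the call did not hold in all of them. The call was lost when any of 16 of the 23 libraries was left out, with adjusted p between 0.0165 and 0.116 and a log2 fold change between 0.26 and 0.32 over the 23. It was kept in DESeq2 (adjusted p = 0.0067), in limma voom (0.0242) and with median-of-ratios factors in edgeR (0.0441), at 0.29 to 0.30. The CPM filter kept all 13766 genes, so it only repeated the main fit. The call was lost with the choroid plexus score in the model (adjusted p = 0.0799, log2 fold change 0.26), with the haemoglobin score (0.0502, 0.32) and in limma on the deposited log2 values (0.0810, 0.30). Leaving out the 7 libraries high in Ttr kept only replicates 2 and 6 of XXM. In that setting the edgeR adjusted p was 0.947 and the log2 fold change 0.24. Nptx2 had an r of 0.25 with the members' mean. In the same list Pcsk1 and Gadd45a had adjusted p of 0.723 and 0.751 for the sex chromosome effect, and Bhlhe40, Rasl11b and Vgf had 0.324, 0.371 and 0.387 for the gonad effect.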

How the data were processed

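Ribosomal RNA was depleted from total hippocampal RNA and strand-specific libraries were made from 500 ng, read for 100 bases from both ends, per the labels' protocols. The deposited table holds estimated counts per gene, called raw in the file headers, which need not be whole, and the authors' normalized values on a log2 scale. Per the file headers, a gene was kept where its raw value was at least 20 in every library of at least 1 group. The submitters' processing notes name mm10 and DESeq. The sources used here do not give the aligner, the counting program or the use of strand.

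Counts were rounded, scaled by TMM and tested with edgeR (version 4.0.16, in R 4.3.3), with a mean for each group and 1 spread for all 23 libraries. The filterByExpr function removed 0 genes. An approximate SE was the size of the log2 fold change divided by the root of F. Correlations used log2 CPM with a prior count of 2. Alternatives were median-of-ratios factors, DESeq2 (version 1.42.0), limma (version 3.58.1), a CPM filter, marker scores as covariates, the deposited log2 values and leaving out each library. The CPM filter kept all 13766 genes and so repeated the main fit. Libraries of the same group had Spearman correlations of 0.983 to 0.996, and no pair agreed within sampling noise (lowest chi-square per gene 4.30). The steps were tested on simulated data.

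Replicate numbers follow accession order and only name libraries. The members and lists were chosen with earlier results of these data known. Named genes are the 10 members, list genes called or with the 3 smallest p per list in the sex chromosome and gonad effects, and the genes most like the members. Other list genes given by their correlation were chosen after their values were seen. Egr2, Maff, Acta2, Kcne2, Hbb-bs and Hbb-bt were not analysed here, nor were promoter windows of Arc, Egr1 and Ier2.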

Additional observations from a re-analysis of the deposited data

How the results depend on the processing

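No member was called in any of 149 combinations of setting and test. For the sex chromosome effect, the gonad effect and the interaction, the smallest adjusted p of any member in any setting was 0.238. All 45 pairs of members stayed correlated at an adjusted p under 0.05 in every setting run, with a median r of 0.81 to 0.85 when each library was left out. Of 930 alternative values of the members' log2 fold changes, 111 changed sign, none of them a call, and the cause was not tested. With the choroid plexus marker score in the model, the sex chromosome effect became -0.027 for Fos, -0.056 for Junb and -0.011 for Dusp1, the gonad effect became 0.068 for Dusp1 and 0.067 for Btg2 and the interaction became -0.093 for Egr1 and -0.063 for Npas4. With the haemoglobin score in the model, the sex chromosome effect became 0.0041 for Fosb, 0.070 for Arc and 0.086 for Nr4a1 and the interaction became -0.066 for Egr1. In limma voom with sample quality weights, the sex chromosome effect became -0.0071 for Junb, 0.014 for Arc, 0.015 for Nr4a1 and -0.024 for Ier2 and the gonad effect became -0.087 for Npas4. In limma on the deposited log2 values, the sex chromosome effect became 0.015 for Arc and 0.0042 for Nr4a1, the gonad effect became -0.0091 for Npas4 and the interaction became 0.0081 for Arc. In DESeq2, the gonad effect became -0.0026 for Npas4. Without the 7 libraries high in Ttr, a setting chosen after seeing the data, the sex chromosome effect became 0.018 for Fosb, the gonad effect became -0.17 for Npas4 and the interaction became 0.21 for Fosb. That setting kept only replicates 2 and 6 of XXM.

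Leaving out each library in turn turned the sign of some values. The sex chromosome effect ran from -0.11 to 0.13 for Arc, from -0.0060 to 0.19 for Dusp1, from -0.11 to 0.029 for Egr1, from -0.024 to 0.093 for Junb and from -0.086 to 0.087 for Nr4a1. The gonad effect ran from -0.078 to 0.078 for Btg2, from -0.12 to 0.077 for Dusp1 and from -0.13 to 0.14 for Npas4. The interaction ran from -0.31 to 0.19 for Arc, from -0.071 to 0.21 for Egr1, from -0.61 to 0.10 for Fos, from -0.23 to 0.12 for Fosb, from -0.13 to 0.43 for Npas4 and from -0.31 to 0.068 for Nr4a1. The members' median gonad difference kept its sign, from -0.29 to -0.12.

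Over all genes, the gonad effect gave 98 calls in DESeq2 and 78 in limma voom against 23 in edgeR, and the sex chromosome effect 60 and 68 against 38. No paired analysis was possible because the labels give each animal its own number and the replicate numbers follow accession order.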

Other observations

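Genes that fell where the members rose were also present, as a description with no test. The lowest correlations with the members' mean over the 23 libraries, after removal of group means, were those of Rab37 (r = -0.77), Ano10 (-0.74), Stk24 (-0.70), Cbr1 (-0.69) and Blvrb (-0.69). Rab37 is a small GTPase of secretory vesicles, Cbr1 a carbonyl reductase and Blvrb a biliverdin reductase. Over the 23 libraries Rab37 ranged from 2.56 to 5.12 CPM, Blvrb from 5.06 to 8.71 CPM and Cbr1 from 40.5 to 55.7 CPM. Of the 13756 other genes, 210 (1.53%) had r below -0.5 and 199 (1.45%) had r above 0.5.

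Markers of cell types were set beside the members' mean in the same way, as a description. None of the 5 astrocyte, 5 microglia, 5 oligodendrocyte, 5 endothelial, 6 mural cell, 8 choroid plexus, 3 haemoglobin, 5 thalamus or 8 hippocampal excitatory neuron markers measured had r above 0.5 with the members' mean. Among the 13756 other genes 1.45% did, so the absence in lists this short does not tell the markers apart from other genes. The median r was -0.11 for the hippocampal neuron markers, -0.22 for astrocytes, -0.32 for microglia, -0.07 for oligodendrocytes and -0.34 for endothelium, where 1 of 5 was below -0.5. It was -0.31 for choroid plexus, -0.14 for haemoglobin, -0.14 for thalamus and -0.09 for mural cells, against -0.03 over the other genes. No astrocyte, endothelial, choroid plexus or haemoglobin marker had a positive r.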
